A study of Homo sapiens with 4 samples.

Results

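Peaks of N7-methylguanosine (m7G) in the mRNAs of 3 collagen genes, COL27A1, COL18A1 and COL6A1, were described in untreated HepG2 cells, an established human hepatocellular carcinoma line. The assay was m7G MeRIP-seq: an anti-m7G antibody enriches polyadenylated RNA carrying the mark, and the enriched RNA is sequenced along with RNA kept as input. There were 2 input and 2 immunoprecipitated (IP) samples, and the peak list of each IP sample was analysed, as replicate 1 and replicate 2. A peak is a part of a transcript that the authors' caller scored as enriched, and its fold is the size of that enrichment. All peaks listed under the names COL27A1, COL18A1 and COL6A1 were taken, which were 12 of the 3355 peaks of replicate 1 and 14 of the 4747 peaks of replicate 2. The genes were chosen by their measured peaks and folds in both lists, so peak numbers and folds are given as a description. Nothing in the labels tells if separate cultures were used for the IP samples. The lists give values for the IP samples only, which form 1 group, so no test across samples was run. Read depth is unknown from these lists.

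Collagens are triple-helical proteins of the extracellular matrix. Each chain of the helix is a long run of Gly-X-Y triplets, in which glycine recurs at regular steps, and the chains are modified and folded in the endoplasmic reticulum before secretion. COL27A1 encodes a fibril-forming collagen known from cartilage. COL18A1 encodes a basement membrane collagen whose C-terminal end is the source of endostatin, an inhibitor of blood vessel growth, and which is made in quantity by hepatocytes. COL6A1 encodes the alpha 1 chain of collagen VI, which forms beaded microfilaments around cells. Internal m7G is a methyl mark on guanosines within an RNA, as distinct from the m7G of the 5' cap.

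The peaks can be placed against regulatory sequences within the genes. Positions are in GRCh38 coordinates, counted from 1, and all 3 genes lie on the plus strand. COL27A1 spans chr9:114154098-114312511, 158414 nt. The RefSeq promoter table (GRCh38.p14) lists a transcript start of COL27A1 at 114155537, which is 1439 nt inside the span, and COL18A1 starts at 45405165 and 45455522 in its span chr21:45405165-45513720 (108556 nt). COL6A1 spans chr21:45981770-46005048, 23279 nt. The 100 bases before each listed start are shown, 5' to 3' on the plus strand, because the first COL27A1 peak lies just past its start and because all COL18A1 peaks lie past both of its starts.
COL27A1, chr9:114155437-114155536: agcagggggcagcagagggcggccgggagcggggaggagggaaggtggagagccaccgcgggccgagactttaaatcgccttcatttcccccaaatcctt
COL18A1 first start, chr21:45405065-45405164: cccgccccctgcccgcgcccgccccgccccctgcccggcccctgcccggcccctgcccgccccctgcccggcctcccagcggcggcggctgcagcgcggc
COL18A1 second start, chr21:45455422-45455521: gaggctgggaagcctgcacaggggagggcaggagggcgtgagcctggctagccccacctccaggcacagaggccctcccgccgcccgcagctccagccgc

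A microRNA gene lies in an intron that a peak bridges in each of COL27A1 and COL18A1. A peak of more than 1 block is spliced, that is, its blocks are adjacent in the mRNA and separated by introns in the genome. Peak 3 of COL27A1 in replicate 2 (chr9:114205787-114209724) bridges an intron of 3378 nt at chr9:114206297-114209674, and this intron holds MIR455 on the same strand, 145 nt before its end. Peak 2 of COL18A1, called in both lists, bridges an intron of 361 nt at chr21:45477966-45478326, and the last base of this intron is the last base of the MIR6815 hairpin. The microRNAs are outside the peak blocks. The lists hold 0 peaks named for either, which says little, because they are lists of mRNA peaks from polyadenylated RNA. Their RefSeq mature sequences are given with the seed, bases 2 to 8, in capitals. The MIR6815 hairpin is given with its last 2 bases in capitals, which are the AG at the intron's end.
hsa-miR-455-5p: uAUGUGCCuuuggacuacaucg
hsa-miR-455-3p: gCAGUCCAugggcauauacac
hsa-miR-6815-5p: uAGGUGGCgccggaggagucauu
hsa-miR-6815-3p: uGGCUUCUcuugcacacccag
MIR6815 hairpin, chr21:45478266-45478326: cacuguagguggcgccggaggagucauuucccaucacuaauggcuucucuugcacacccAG
The 4 seeds differ from each other. Among the 2370 mature names of the RefSeq table, the seed of hsa-miR-6815-5p was shared with hsa-miR-6865-5p, and the other seeds were shared with none.

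COL27A1 carried 6 peaks in replicate 1 and 7 in replicate 2. Of the 2511 genes of replicate 1, 2 had more peaks and 7, COL27A1 included, had as many or more. Of the 3205 genes of replicate 2, these numbers were 3 and 11. By contrast, 76.1% and 69.8% of genes had 1 peak. In each list the highest 2 folds of the gene were those of its first and last peaks. The peaks between them had folds from 1.73 to 4.07 in replicate 1 and from 1.81 to 6.43 in replicate 2. The first peak, at chr9:114155844-114155934, had a fold of 8.48 in replicate 1 and began 307 nt past the listed transcript start. In replicate 2 it ran over a junction from chr9:114155874-114162756 with a fold of 7.38, and began 337 nt past the start. Its p was not among the small ones, with a -log10 p of 4.58 in replicate 1 and 4.51 in replicate 2. Only 35.1% and 39.3% of all peaks in these lists had a larger p. The second peak lay in a single block in both lists, chr9:114168586-114168825 with a fold of 1.73 in replicate 1 and chr9:114168496-114168945 with a fold of 1.9 in replicate 2. The peak of replicate 1 lay wholly within that of replicate 2, and both folds were among the lowest of the gene.

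Past the first 2 peaks, COL27A1 had no called peak common to both lists until peak 4. In that stretch each list had a peak of its own, with similar low folds. Replicate 2 had the 121-nt peak 3 that bridges the MIR455 intron, with a fold of 2.13. Replicate 1 had the 61-nt peak 3 at chr9:114231858-114235650, with a fold of 2.12 and a -log10 false discovery rate (FDR) of 1.62, near the 1.32 at which both lists end. Another peak without a partner, chr9:114258584-114265076 in replicate 2, lay between the spliced peaks described next; it had a fold of 1.81 and a -log10 FDR of 1.86. These 3 peaks, of 61 to 121 nt, were the only ones among the 26 without a partner in the other list, where a partner is a peak of the same gene and strand that overlaps by at least 50% of the shorter peak.

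Past the middle of its span, COL27A1 held 3 spliced peaks in both lists, and their folds were higher the nearer they lay to the 3' end in each list. In replicate 1 the folds were 3.56 for peak 4 (6 blocks), 4.07 for peak 5 (5 blocks) and 6.32 for peak 6 (8 blocks). In replicate 2 the folds of their partners were 5.75 for peak 4 (9 blocks), 6.43 for peak 6 (6 blocks) and 12.5 for peak 7 (12 blocks). Replicate 2 was thus the higher at all 3, by 1.62, 1.58 and 1.98 times. Each replicate 1 peak lay wholly within its partner. The partner was longer in exonic length, 420 against 211 nt, 330 against 271 nt and 749 against 540 nt. The last of these, chr9:114288460-114292158 in replicate 1 and chr9:114283762-114300667 in replicate 2, also had the smallest p of the gene, with a -log10 p of 26.7 and 35.3. Its midpoint was 22.3 and 22.2 kb from the 3' end of the span, so that no COL27A1 peak reached the end of the gene.

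**Figure D1:**
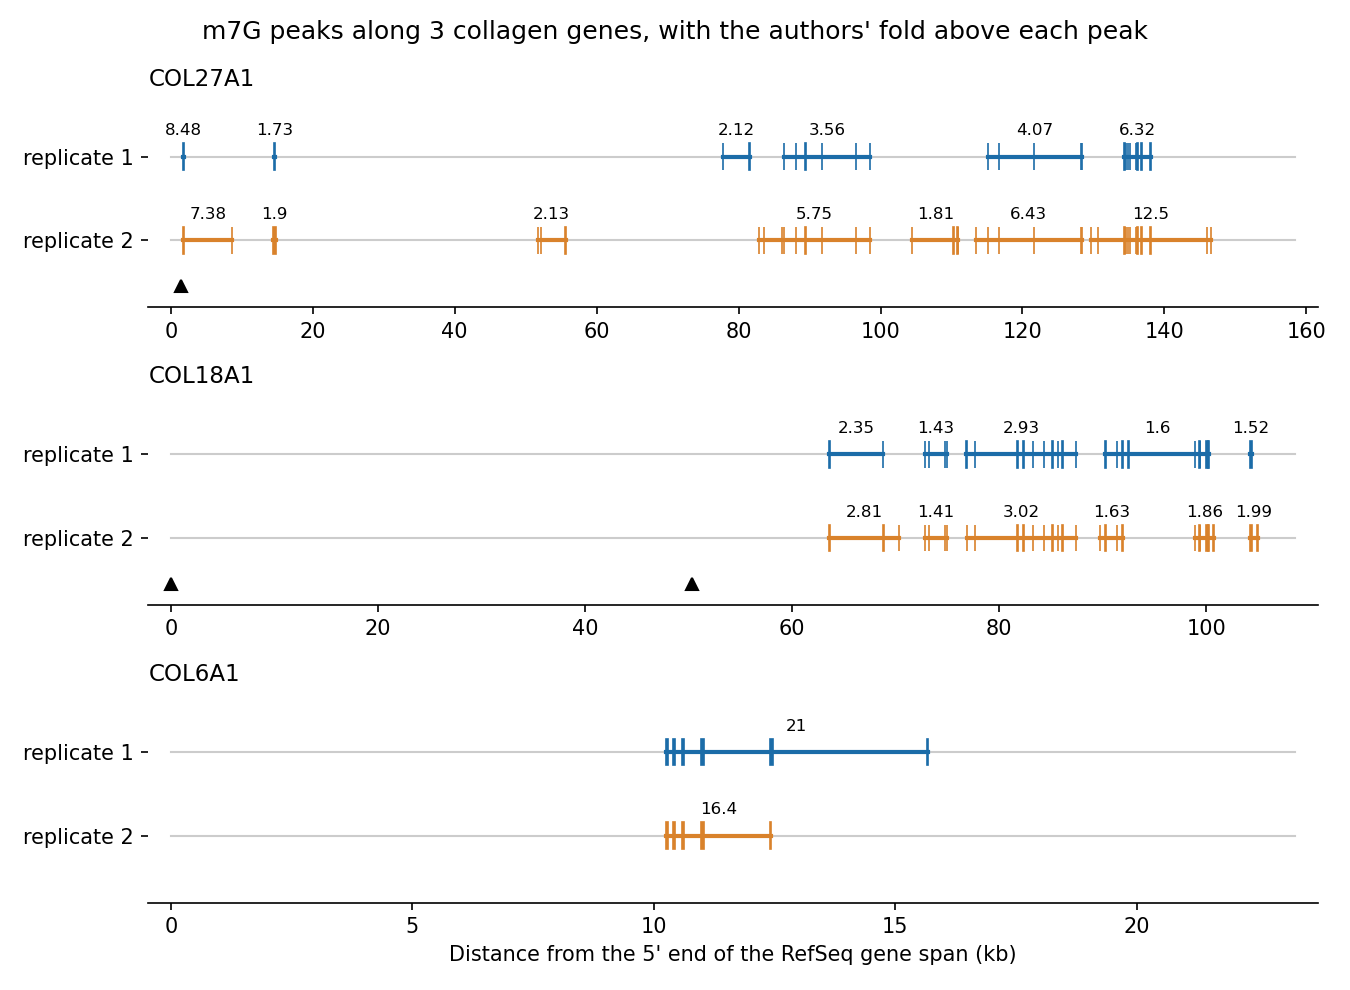
Peaks of COL27A1, COL18A1 and COL6A1 in replicate 1 (blue) and replicate 2 (orange), by distance from the 5' end of the RefSeq gene span in kb. Upright bars are the blocks of a peak, thick lines the introns it bridges, numbers its fold and triangles the listed transcript starts of COL27A1 and COL18A1; COL18A1 peaks begin past the second start, and the peak of COL6A1 lies near the middle of the gene.

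COL18A1 carried 5 peaks in replicate 1 and 6 in replicate 2, all with low folds. They ranged from 1.43 to 2.93 in replicate 1 and from 1.41 to 3.02 in replicate 2, below the median of all peaks in the same list, 3.71 and 3.87. The first peak began 13.2 kb past the second transcript start in both lists, with folds of 2.35 and 2.81. The peaks therefore lie past both starts, and their place does not separate transcripts from the first start from those of the second. Peak 2, at the MIR6815 intron, had the lowest fold of the gene in both lists, 1.43 and 1.41. Peak 3 had the highest fold and the smallest p of the gene in both lists. It ran from chr21:45481967 in replicate 1 and chr21:45481997 in replicate 2 to the same last base, 45492562, over 10 blocks. Its folds were 2.93 and 3.02, and its -log10 p was 33.9 and 33.4. Its p was smaller than that of 94% and 95.9% of all peaks, whereas its fold was above only 34.7% and 32.5% of them. A very small p thus stood beside a modest fold.

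Towards the 3' end of COL18A1 the lists cut the signal differently. Peak 4 of replicate 1 ran over 9 blocks from chr21:45495409-45505408 with a fold of 1.6. In replicate 2 the same stretch held peak 4 (chr21:45494877-45497077, fold 1.63) and peak 5 (chr21:45504052-45505874, fold 1.86), and both counted as partners of the replicate 1 peak. The last peak began at 45509380 in both lists. It was 180 nt long with a fold of 1.52 in replicate 1, and 300 nt long with a fold of 1.99 in replicate 2. Its midpoint lay 4.25 and 4.19 kb from the 3' end of the span, the nearest to a 3' end of any of the 26 peaks.

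COL6A1 had 1 peak in each list, and it had the highest fold of the 3 genes. The fold was 21.0 in replicate 1, where 98.4% of all peaks had a lower one, and 16.4 in replicate 2, where 97.4% did. The peak began at chr21:45992017 in both lists. It had 6 blocks and 301 nt and ended at 45997449 in replicate 1, and had 5 blocks and 241 nt and ended at 45994198 in replicate 2. All 241 nt of the replicate 2 peak were within that of replicate 1. Its midpoint was 47.2% and 45.5% along the span, so this peak was internal to the gene and far from both of its ends. The -log10 p was 11.7 and 8.01, smaller than at the strongest peaks of COL27A1 and COL18A1.

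**Figure D2:**
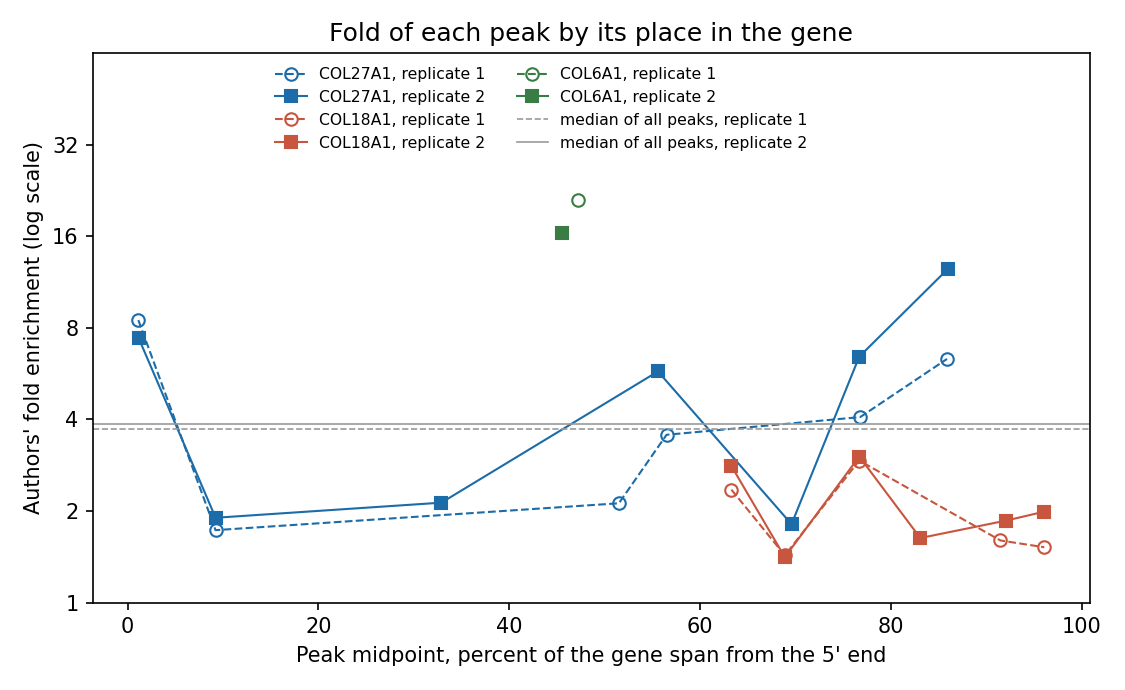
The authors' fold of each peak on a log scale, by the place of its midpoint in percent of the gene span; open circles with dashed lines are replicate 1, filled squares with solid lines replicate 2, and grey lines the median fold of all peaks in each list. COL27A1 has its highest folds at its first and last peaks, COL18A1 stays below both medians, and COL6A1 stands at 21.0 and 16.4.

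For 0 of the 26 peaks was the midpoint 200 nt or less from the 5' end of the gene's span, against 27% of all peaks of replicate 1 and 21.6% of replicate 2. These 26 peaks come from 3 genes, whereas most genes of the lists have 1 peak, so the shares per peak are not on like terms. In COL27A1 the listed transcript start itself lies 1439 nt inside the span. The nearest were the first COL27A1 peaks, 1791 and 1866 nt from the end of the span. Measured from the listed transcript start instead, the same midpoints lay 352 and 427 nt away. Peaks with more than 1 block made up 9 of the 12 peaks of replicate 1 and 13 of the 14 of replicate 2, against 26.4% and 28.2% of all peaks. The peaks of the 3 genes were also longer, with a median exonic length of 226 and 270 nt against 151 nt over each list. The part of peak length and exon size in this contrast was not tested. The lists hold few peaks of 8 or more blocks, 4 in replicate 1 and 5 in replicate 2. In each list 3 of them lay in COL27A1 or COL18A1 and 1 in COL9A3, a chain of collagen IX, and the fifth of replicate 2 lay in the RNA-binding protein gene QKI.

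The blocks inside these spliced peaks had sizes known from collagen genes. A block that is neither the first nor the last of a peak is bounded by splice junctions on both sides, so its size is that of an exon in the models used by the authors' caller. A gap of 9 nt in COL18A1 was also counted as a junction, and whether it is one was not tested. A Gly-X-Y triplet is encoded by 9 nt, and many exons of the helix are known to hold whole triplets. Of the 24 distinct internal blocks of COL27A1 in either list, 23 had a size that is a multiple of 9 nt. They comprised 15 of 54 nt, 4 of 45 nt and 4 of 108 nt, and the exception had 57 nt. All 4 of COL6A1 were multiples of 9 nt, with sizes of 54, 36, 63 and 63 nt. Outside the collagen family the same held for 61 of 490 internal blocks, 12.4%.

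In COL18A1, 10 of 20 internal blocks were multiples of 9 nt, and these were unevenly placed. Up to the end of peak 3 there were 9 of 11, with the exceptions of 87 and 132 nt. After peak 3 there was 1 of 9, of 63 nt. The blocks of 97 and 35 nt among these 9 were counted apart, though the gap between them is only 9 nt. This split was made after the sizes were seen and is given without a test. The peak with the highest fold and smallest p of COL18A1 thus lay mostly over blocks of triplet size, whereas peaks 4 and on lay mostly over others. Peak 2, with the lowest fold of the gene, also had internal blocks of triplet size, 27 and 63 nt, so block size did not follow the fold. For the other collagen genes with peaks, 34 of 44 internal blocks were multiples of 9 nt, among them 21 of 54 nt. Block sizes belong to the gene models and not to the antibody signal; they show which part of each mRNA the peaks cover.

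**Figure D3:**
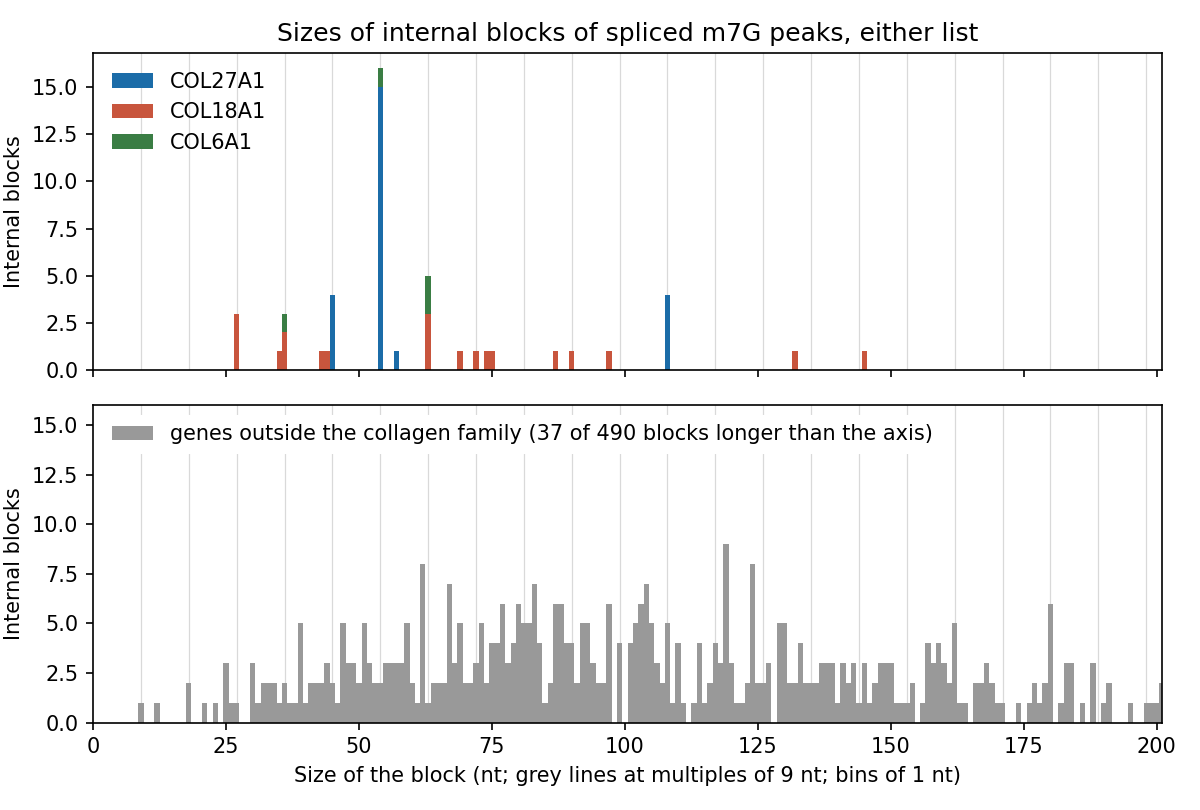
Number of internal blocks by size in nt, in COL27A1, COL18A1 and COL6A1 (upper) and in genes outside the collagen family (lower), for blocks of either list; grey lines mark multiples of 9 nt. The collagen blocks gather at 54 nt (16 of 48), whereas the others spread over all sizes with a median of 103 nt.

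The lists were then compared over these genes. A partner in the other list was found for 11 of the 12 peaks of replicate 1, where 65.1% of all peaks had one, and for 12 of the 14 of replicate 2, where 45.4% did. The genes were chosen as carrying peaks in both lists, so these counts are no evidence about collagens. By bases, 1323 nt of COL27A1 were covered in both lists, 93.6% of its 1414 nt in replicate 1 and 55.8% of its 2372 nt in replicate 2. COL18A1 had 1354 nt in both, 86.6% of the 1563 nt of replicate 1 and 76.4% of the 1773 nt of replicate 2. COL6A1 had 241 nt in both. The replicates thus differed in COL27A1 chiefly by added bases in replicate 2.

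The introns bridged by peaks recurred to the base. Of 43 junctions of the 3 genes in replicate 1 and 57 in replicate 2, 39 were in both lists, compared with 61.4% of all junctions of replicate 1 and 41.9% of replicate 2. Choosing genes with peaks in both lists favours a high count, so this is a description and no evidence about collagens. COL27A1 had 16 in both, COL18A1 19 and COL6A1 4. Junctions come from gene models, so an equal position shows that the same exons were joined and not an independent measurement. Outer edges were coarser. Exonic lengths lay within 2 nt of a multiple of 30 nt for all 26 peaks, as for 93.2% and 94.6% of all peaks, and an edge is therefore known only to about this step.

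Across the 11 pairs of shared peaks, matched one to one, the fold of replicate 2 over that of replicate 1 had a median of 1.16 and ranged from 0.781 at COL6A1 to 1.98 at the last COL27A1 peak. Replicate 2 was higher in 8 of the 11 pairs, against 54.9% of the 2128 shared peaks of all genes. The folds were within 1.5 times of each other in 8 of 11, against 72.5% of all shared peaks. The other 3 were the spliced 3' peaks of COL27A1. In COL18A1 the 5 pairs differed by no more than 1.31 times, while the highest and lowest folds within the gene differed by more in each list. The order of the strongest and weakest COL18A1 peaks, 3 and 2, was the same in both lists.

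**Figure D4:**
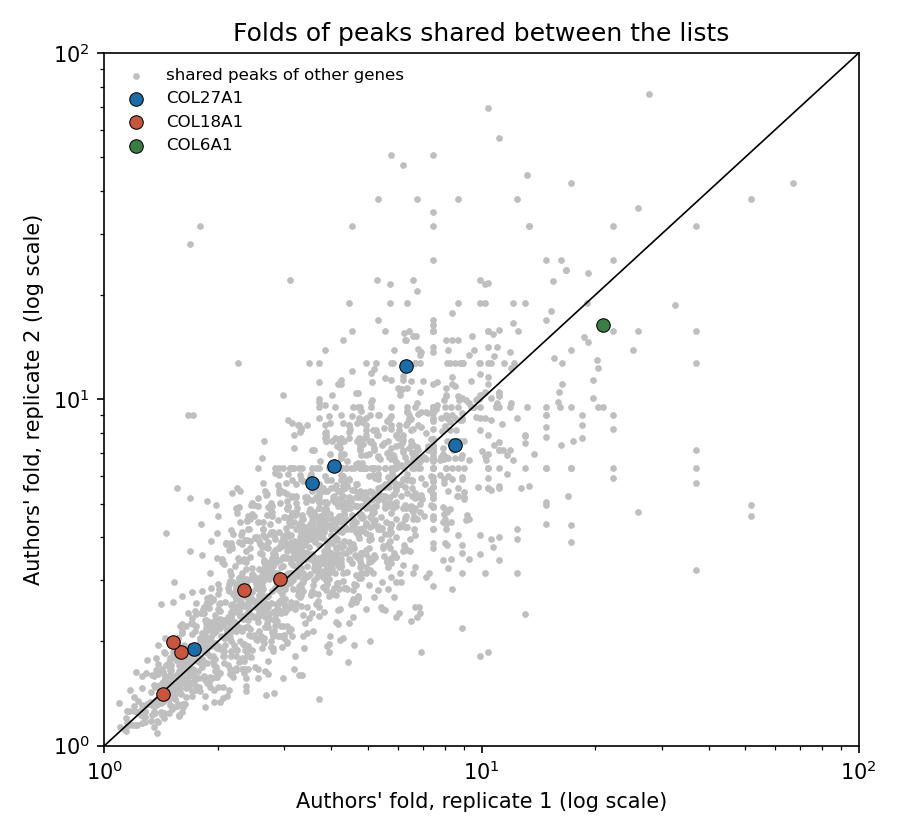
The authors' fold in replicate 1 (horizontal) and replicate 2 (vertical), both on log scales, for the 2128 peaks shared between the lists, with the 11 of COL27A1, COL18A1 and COL6A1 in colour and a line of equality. The 3 COL27A1 points farthest above the line are its 3' peaks, and the COL18A1 points lie near it.

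Genes with a like pattern were sought by the number of peaks in each list and then by the highest fold, over the 2 lists. No other gene had 5 and 6 peaks as COL18A1 did. Among 1043 other genes with 1 peak in each list, the nearest to COL6A1 were ANKS1A (22.3 and 15.8), KCMF1 (18.7 and 15.1) and ATRAID (19.2 and 14.6), with summed log2 differences of 0.14 to 0.30.

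Of 44 collagen chain genes in the RefSeq table, 8 had a peak in either list, and COL9A2 and COL9A3 were the other ones with peaks in both. In all, 5 of the 8 (62.5%) had peaks in both, against 51.7% over all genes with any peak. COL27A1, COL18A1 and COL6A1 are among the 5 and were chosen for peaks in both lists. The share of all genes with a peak is not given here, so these counts are a description. COL9A3 carried a single peak of 32 blocks in each list, of 2186 and 2216 nt, which was the longest peak of its list. Its folds were 4.23 and 4.61. COL9A2, its partner chain in collagen IX, had 2 peaks in each list, with folds of 4.24 and 2.65 in replicate 1 and 3.45 and 3.38 in replicate 2, from the 5' to the 3' side. COL6A2, the partner chain of COL6A1, had a peak in replicate 1 alone, with a fold of 14.8. It was spliced over 4 blocks, and both internal blocks had 63 nt, a size also found in COL6A1. COL16A1, a fibril-associated collagen, had a peak in replicate 1 alone (fold 7.42), and COL7A1, the anchoring fibril collagen, had 2 in replicate 2 alone (folds 22.1 and 19.0). The value of 7.42 was the commonest fold of replicate 1, found at 107 peaks, and 14.8 and 19.0 equal, within rounding, whole multiples of the commonest fold of their list. No fold of COL27A1, COL18A1 or COL6A1 did so, but only whole multiples up to 10 were checked. Over all peaks, 5.16% of replicate 1 and 6.93% of replicate 2 had such a fold. With shares this low, the absence among 26 peaks says little. The folds of the first COL27A1 peak, 8.48 and 7.38, also occurred together at a shared peak of AP5B1. COL1A1, COL1A2 and COL3A1, the abundant collagens of stellate cells and fibroblasts, had 0 peaks.

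Genes that modify and secrete collagen were taken as a list of 34, of which 13 had a peak in either list and 12 in both. For 9 of the 12 a peak was shared by overlap; PLOD3, P3H3 and COLGALT1 had peaks at different places in the 2 lists. The values given for a gene are its highest fold in replicate 1 and in replicate 2, and in P3H4 they also belong to different peaks. Over all genes, 51.7% of those with a peak in either list had one in both. Of the enzymes that hydroxylate collagen, P4HB, the beta subunit of prolyl 4-hydroxylase, had highest folds of 1.49 and 1.7. The lysyl hydroxylase genes PLOD1 (1.39 and 1.72) and PLOD3 (5.4 and 2.41) had peaks in both lists, and PLOD2 (2.25) in replicate 1 alone. The prolyl 3-hydroxylase family had P3H1 (5.19 and 2.68), P3H3 (7.42 and 6.33, the commonest fold of each list) and P3H4 (2.85 and 3.43). COLGALT1, which adds galactose to hydroxylysine, had 2.28 and 1.59. The prolyl isomerases of the endoplasmic reticulum were FKBP10 (3.04 and 5.1) and PPIB, which differed widely (13 and 2.4). SEC23A, a coat protein of export vesicles, had 2.71 and 3.06. The crosslinking oxidases had 3.71 and 5.24 for LOX and 7.42 and 4.6 for LOXL4. SERPINH1, the collagen chaperone HSP47, had no peak. PPIB in replicate 1 was the only one of these genes above the highest COL27A1 fold of the same list.

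The other lists had fewer genes with peaks. Of 24 basement membrane and matrix genes, 9 had a peak in either list and 6 in both, 5 of them with a shared peak. The highest folds of HSPG2 and AGRN belong to different peaks in the 2 lists. Perlecan, HSPG2, had highest folds of 5.3 and 4.74, nidogen, NID1, 3.23 and 5.69, and agrin, AGRN, 2.8 and 2.4. Fibulin, FBLN1, had 2.43 and 3.02, and fibronectin, FN1, had 1.58 and 1.23. The laminin chain gene LAMC1 had 51.9 in replicate 1, within rounding a whole multiple of the commonest fold, and 4.97 in replicate 2, and LAMA5 and LAMB2 had peaks in replicate 2 alone. Of 14 collagen receptor genes, ANTXR1, an anthrax toxin receptor that binds collagen, had peaks in both lists (3.71 and 4.03) and ITGA2 in replicate 1. Of 18 genes of collagen breakdown, the membrane protease MMP15 (6.07 and 10.6) and the inhibitor TIMP2 (3.37 and 4.28) had peaks in both. Over the 4 lists, 21 of the 27 genes with any peak had peaks in both, against 51.7% over all genes with any peak. Of the 90 genes, 63 had no peak, and the share without a peak over all genes is not given here. These counts are therefore a description and no result about collagen. The lists give no expression values, and a gene without m7G cannot be told apart from one without mRNA.

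The labelled cell type could be read from these lists only through peaks. Of 11 hepatocyte markers 6 had peaks in both lists, with APOE at 2.15 and 2.24. Of 7 stellate cell and fibroblast markers 1 did, ACTA2 (3.69 and 2.74). Of 4 immune markers 2 did, CD68 (4.15 and 3.95) and LYZ (6.73 and 2.36), and of 4 endothelial markers 0 did.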

How the data were processed

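Stranded libraries of input and m7G IP RNA were made from HepG2 poly(A) RNA, per the labels' protocols. The submitters' processing notes name STAR and the build GRCh38, with neither a version nor a role. No header or label names the peak caller or its filters. Each deposited list belongs to 1 IP sample. The fold is a ratio per peak as the authors deposited it, and the headers do not say which libraries were set against each other. The p-value, and the log10 p and log10 FDR used as scores, are the authors' own, per the file headers. Values of the input samples were not analysed here.

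Peaks were selected by gene name. Distances were taken from a peak's midpoint along its blocks to the ends of the RefSeq span (GRCh38.p14), matched by symbol; the share of all peaks near a 5' end is over peaks whose name is a current symbol. A partner had to overlap by 50% of the shorter peak; 1 shared base, 80% of both peaks, genomic spans and the 50% of peaks with the lowest p in each list were tried instead. No statistical test was run. No genome was used, so the sequences of the peaks are not shown; promoter and microRNA sequences are from RefSeq tables of GRCh38.p14. Named are all collagen genes with a peak, list genes with peaks in both lists, and up to 3 genes per member closest in peak number and highest fold, where that for COL27A1 is not reported here; SERPINH1, PLOD2, ITGA2, LAMA5 and LAMB2 were added after their values were seen. The members and lists were chosen with earlier results of these data known. The code that matches peaks and measures blocks was checked on made-up lists with known answers, which gave no result used here. Python 3.11.15, numpy 2.4.6, pandas 2.3.3 and matplotlib 3.10.9 were used.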

Additional observations from a re-analysis of the deposited data

How the results depend on the processing

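Of the 26 collagen peaks, 23 had a partner in the other list. The number was 23 with 1 shared base, 23 by genomic span, 17 in the 50% of peaks with the lowest p per list, and 6 when 80% of both peaks had to overlap, which fewer peaks can pass by construction. Genes of the 4 lists with peaks in both numbered 21, against 17 by a shared peak and 8 in the 50% with the lowest p, where fewer peaks enter. The median fold of the collagen peaks in each list averaged 2.55 ± 0.12 over the lists (mean of the 2 medians, SD, n = 2). It ranged from 2.47 to 2.64 without one replicate, and the same mean was 2.92 for shared peaks and 3.03 in the 50% with the lowest p, which leaves out 4 and 3 of the peaks. The number of peaks near a 5' end was 0 within 200 or 1000 nt of the span's end and 0 without either replicate. Alternatives chosen after seeing the data gave 0 within 200 nt and 2 within 1000 nt of a listed transcript start, both in COL27A1. No paired analysis was possible because the input samples, which share the replicate numbers, had no values analysed here. Unknown depth limits which peaks could be called, and a missing peak is not a missing mark.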

Other observations

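Genes on the opposite strand overlap both multi-peak collagen genes. The long noncoding RNA LOC124902252 at chr9:114283965-114290813 overlaps blocks of the last COL27A1 peak in both lists, the one with folds of 6.32 and 12.5. SLC19A1, the reduced folate carrier gene, spans chr21:45502517-45563025 and overlaps blocks of COL18A1 peaks 4 and 5 in replicate 1 and 5 and 6 in replicate 2. SLC19A1 had 0 peaks of its own in replicate 1 and 2 in replicate 2, and LOC124902252 had 0 in both. The 0 of LOC124902252 says little, because it is noncoding and the lists are of mRNA peaks. The libraries were stranded, but whether reads were counted by strand is not given in the sources used here, and the part of opposite-strand RNA in these folds was not tested.

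The introns bridged by COL18A1 peaks had a median of 506 nt, and 1 gap was 9 nt, between blocks of 97 and 35 nt. The next shortest was 79 nt. In COL27A1 the bridged introns ran from 97 to 7859 nt with a median of 1280 nt. Whether the 9-nt gap is an intron or a feature of the gene model was not tested. It was counted among the junctions, and the blocks beside it among the internal blocks.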
